A study of Mus musculus with 20 samples.

Results

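The genes described here are 9 genes of haem synthesis: Alas1, Alas2, Alad, Uros, Urod, Cpox, Ppox, Fech and Slc25a38. They were taken by name from a list of the pathway, and all 9 were found among the 53379 gene identifiers of each expression table. All 9 also passed the filter on low counts, which left 15835 genes.

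RNA-seq was done on Lin- progenitor cells, that is blood progenitors without markers of mature lineages, in 20 libraries forming 5 groups of 4. The wild-type control group was made of wild-type fetal liver cells with a control retroviral vector. The enhancer-null control group carried the same kind of vector in cells lacking the -77 enhancer of Gata2 (-77KO), which drives that gene in progenitors. The other 3 groups were enhancer-null cells with an MSCV retroviral vector coding for Gata2 (GATA2 group) or for GATA2 with the protein change R307W or T354M. Cells of all groups were cultured for 3 days after infection. For the wild-type control, enhancer-null control and GATA2 groups the labels give the age E14.5, the C57BL/6J background and a medium with conditioned sources of interleukin 3 and stem cell factor. The R307W and T354M records do not carry these fields, so a difference in handling cannot be told apart from a difference between a variant and the other 3 groups. The labels do not say whether replicates were separate cultures or animals, so p-values measure the spread between these libraries, which may be technical.

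Haem is an iron-containing ring that carries oxygen in haemoglobin and electrons in cytochromes and peroxidases. Its synthesis starts in mitochondria, where 5-aminolevulinate (ALA) synthase joins glycine to succinyl-CoA, passes through the cytosol, and ends in mitochondria with the insertion of iron. The first step has a pair of enzymes: Alas1 encodes the form present in most cells, and Alas2, on the X chromosome, the form of red cell precursors. Slc25a38 encodes a mitochondrial carrier that brings in glycine for that step. Alad, Uros and Urod encode cytosolic enzymes that build and trim the ring, and Cpox, Ppox and Fech the mitochondrial enzymes that oxidise it and insert the iron. GATA1 is a known activator of genes of this pathway, such as Alas2, in red cell precursors, and GATA2 binds the same DNA motif in progenitors.

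Because GATA factors recognise a short DNA motif, the 250 bases before each RefSeq start site (build GRCm38.p6) were searched on both strands for the letters AGATAA and the 3 variants of it with T as the first letter, G as the last, or both. A total of 8 of the 9 genes had such a window, with 11 windows in all because some genes have more than 1 start. Of these 11 windows 3 held the motif, and 26.5% of all 32851 windows of this length did. The sequences with a motif are given here in the direction of the gene, with the motif, or its reverse complement, in capitals and without stretches annotated as exon. The first is from Alas2, where TTATCT, the reverse complement of AGATAA, begins 86 bases before the start (chrX:150547167-150547374, plus strand). The next is from Cpox, with a pair of overlapping motifs that begin 91 and 86 bases before the start (chr16:58669958-58670207, plus strand). The last lies before an inner start of Uros, 205 bases upstream (chr7:133702617-133702750, minus strand), and another motif 68 bases before that start lies in an annotated exon and is not shown.
Alas2: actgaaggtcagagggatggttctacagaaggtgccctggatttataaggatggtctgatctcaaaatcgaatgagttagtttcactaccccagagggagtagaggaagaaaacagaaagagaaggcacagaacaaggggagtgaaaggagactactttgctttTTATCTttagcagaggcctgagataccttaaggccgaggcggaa
Cpox: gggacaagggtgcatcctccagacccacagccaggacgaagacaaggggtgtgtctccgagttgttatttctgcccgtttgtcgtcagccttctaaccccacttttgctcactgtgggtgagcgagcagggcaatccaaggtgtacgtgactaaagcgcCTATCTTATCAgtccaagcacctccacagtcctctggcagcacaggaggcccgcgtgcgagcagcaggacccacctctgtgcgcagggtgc
Uros: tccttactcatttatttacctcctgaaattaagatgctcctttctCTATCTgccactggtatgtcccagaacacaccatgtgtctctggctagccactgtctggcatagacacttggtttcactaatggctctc
The windows of Alas1, Alad, Urod, Ppox and Slc25a38 held none of these letters, which says nothing about binding elsewhere. A match is a description of the sequence and not a measured binding site.

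Each library held between 22330475 and 33245876 expected counts, and the mitochondrial ribosomal RNA mt-Rnr2 took 17.9 to 24.6% of them. Gata2 itself had 10.05 to 17.11 TPM (a level scaled to gene length and to the library total) in the wild-type control libraries and 1.57 to 2.38 in the enhancer-null control libraries. It had 21.38 to 48.20 TPM with GATA2, 17.02 to 37.79 with R307W and 20.83 to 44.70 with T354M. These reads do not separate the vector's coding sequence from the gene. Differences in Gata2 between the vector groups did not pass the edgeR test, with adjusted p = 0.752 for R307W against GATA2, 0.28 for T354M against GATA2 and 0.992 for T354M against R307W. In that test, which uses counts, no vector group passed against the wild-type control either. Gata2 was 1.82-fold higher with GATA2 (adjusted p = 0.051), 1.24-fold with R307W (0.511) and 1.17-fold with T354M (0.617). On the scale of the counts the libraries overlapped in each case.

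Levels per gene length differed between the 9 genes. In the wild-type control cells Urod was highest, at 145 ± 23.8 TPM (SD, n = 4), above Alas1 at 107 ± 6.88 in every library. Cpox followed at 104 ± 25.7 and overlapped Alas1. The other 6 genes formed a series of neighbours that overlapped each other, from Alad at 61.3 ± 13.4 TPM to Alas2 at 42.2 ± 16.2. In each of the 4 enhancer-null groups Alas1 was highest and Urod next, and Alas2 was lowest, with no overlap at any of these steps. The plot of levels by library shows this for each gene.

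**Figure D1:**
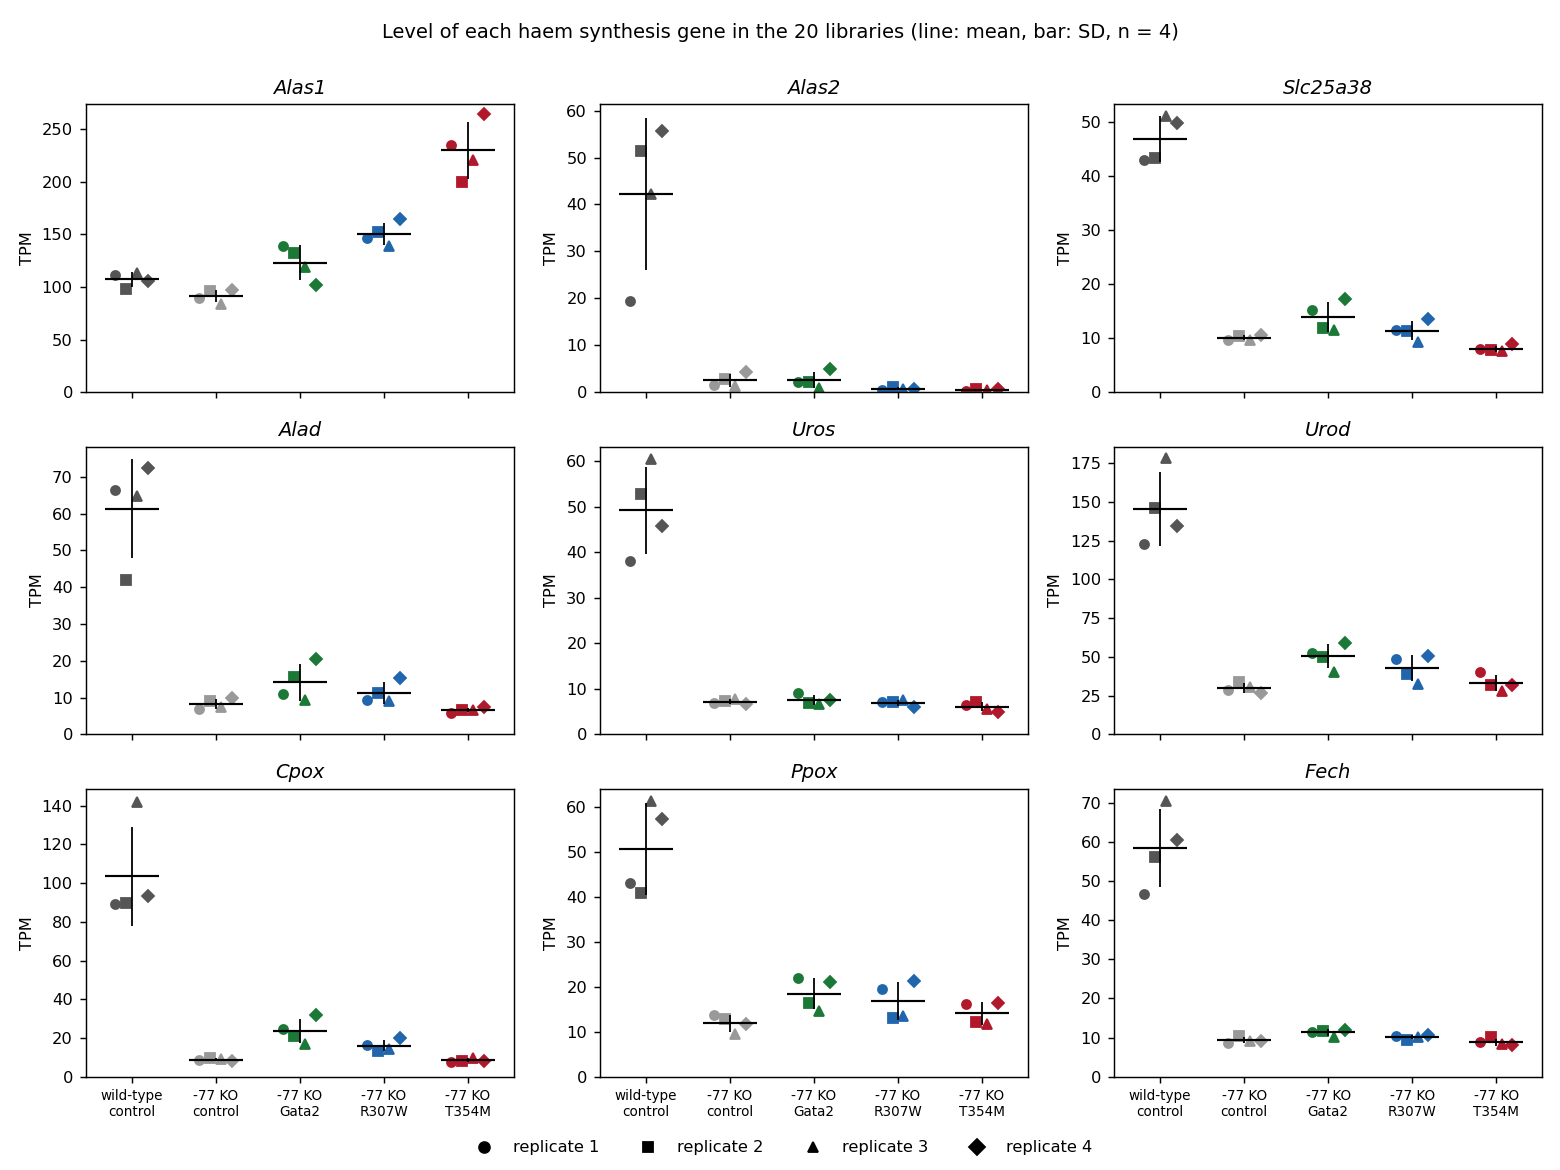
Level of each gene in TPM (y axis, from 0, a scale of its own in each panel) in the 5 groups (x axis), 1 point per library with its shape giving the replicate number, with the mean (line) and SD (bar) of 4 libraries. A total of 8 genes are highest in the wild-type control cells, while Alas1 is highest with T354M, where its libraries lie between 199.52 and 264.25 TPM.

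Loss of the enhancer lowered all 9 genes: each fell in the enhancer-null control against the wild-type control (edgeR, adjusted p under 0.05). Among all genes tested 23.2% fell and 20.1% rose. The median log2 difference of the 9 genes was -2.73, against -0.05 for all genes tested. For each of the 9, the 4 libraries of one group lay outside the range of the other on the CPM scale. CPM here is the count scaled to a library total adjusted by the TMM normalisation of the fit. The same held for 38.8% of all genes tested.

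The pair of genes for the first step differed in the size of the fall. Alas2 had 19.45, 51.45, 42.19 and 55.74 TPM in wild-type control replicates 1 to 4, and 1.59, 2.86, 1.43 and 4.32 in the enhancer-null control. Every wild-type library was above every enhancer-null one, and replicate 1 was the lowest of the wild-type libraries. Alas2 fell by 4.03 on the log2 scale (SE 0.57, 16.3-fold lower, adjusted p = 1.35e-05). Alas1 had 111.19, 98.17, 113.59 and 105.29 TPM in the wild-type control and 89.26, 95.80, 83.74 and 96.89 in the enhancer-null control. The groups lay next to each other without overlap. Alas1 fell by 0.33 (SE 0.11, 1.26-fold lower, adjusted p = 0.0221), the smallest change of the 9. That call ended when replicate 1 or 3 of the enhancer-null control was left out (adjusted p = 0.0592 and 0.0779), or replicate 1, 3 or 4 of the wild-type control (0.0533, 0.0813 and 0.0504). It also ended without the filter on low counts (adjusted p = 0.0805) and with limma on log2(TPM + 1) (0.0863). Slc25a38, the glycine carrier, had 43.01 to 51.05 TPM in the wild-type control and 9.61 to 10.57 in the enhancer-null control, and fell 3.92-fold (adjusted p = 5.88e-08).

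The 3 cytosolic enzymes fell by more than Slc25a38 and Alas1 and by less than Alas2. Alad, which joins a pair of ALA molecules into porphobilinogen, had 66.32, 41.83, 64.69 and 72.47 TPM in the wild-type control and 6.91, 8.97, 7.59 and 9.79 in the enhancer-null control. It was 7.89-fold lower (log2 difference -2.98, SE 0.28, adjusted p = 1.08e-07). Uros, which closes the ring, had 38.05 to 60.43 TPM and then 6.66 to 7.86, and was 6.63-fold lower (adjusted p = 1.61e-11). Urod, which removes carboxyl groups from the ring's side chains, had 122.97 to 178.05 TPM and then 26.77 to 33.97, and was 4.95-fold lower (adjusted p = 1.92e-09).

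Of the mitochondrial oxidation and iron steps, Cpox changed most. It had 89.28, 89.62, 142.02 and 93.29 TPM in the wild-type control, where replicate 3 stood above the other libraries, and 8.49, 9.48, 9.32 and 7.90 in the enhancer-null control. Cpox was 12.5-fold lower (log2 difference -3.65, SE 0.22, adjusted p = 7.75e-10). Ppox, the next oxidase, had 40.84 to 61.51 TPM and then 9.41 to 13.82, and was 5.11-fold lower (adjusted p = 3.78e-08). Fech, the ferrochelatase that inserts iron, had 46.66 to 70.52 TPM and then 8.50 to 10.32, and was 6.70-fold lower (adjusted p = 1.61e-11). Without Alas1, the summed level of the other 8 genes was 558 ± 85.7 TPM in the wild-type control and 88.0 ± 5.49 in the enhancer-null control (SD, n = 4).

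Red cell markers fell with them. All 11 erythroid markers analysed here were lower in the enhancer-null control, and their summed level was 439 to 611 TPM in the wild-type control and 14.2 to 26.6 in the enhancer-null control. In these bulk samples fewer red cell precursors and less RNA per cell cannot be told apart. Markers of hepatocytes, liver cells that also make haem with ALAS1, gave 0 calls among 12 in edgeR and 0 at an unadjusted p under 0.05, and their summed level was 454 to 1748 TPM and 378 to 1114 TPM. Neutrophil markers fell in 5 of 7, with a summed level of 11678 to 31509 TPM in the wild-type control and 4589 to 6939 TPM in the enhancer-null control, and all 7 stem and progenitor markers changed, 6 of them upward. The part of these markers in the changes of the haem genes was not tested.

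**Figure D2:**
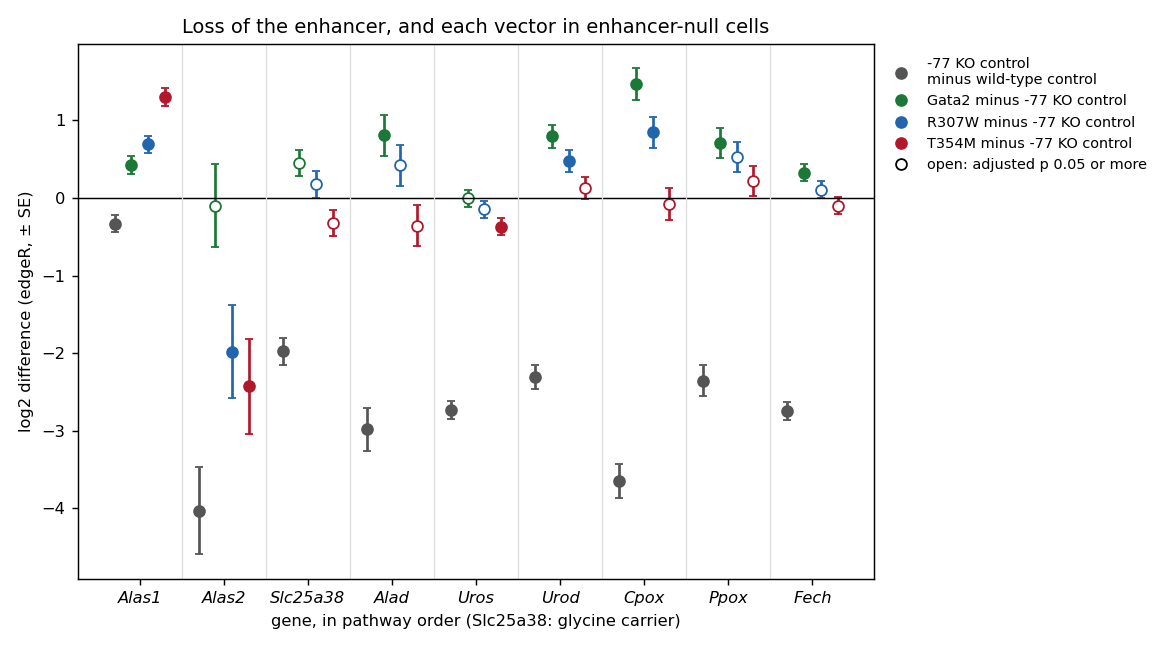
Log2 difference of each gene (y axis, with its SE from edgeR) for the enhancer-null control minus the wild-type control (grey) and for each vector minus the enhancer-null control (green, blue and red), filled where the adjusted p is under 0.05. The grey points lie between -4.03 and -0.33, whereas the vector points spread on both sides of 0.

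Adding GATA2 to enhancer-null cells raised 6 of the 9 genes against the enhancer-null control: Alas1, Alad, Urod, Cpox, Ppox and Fech. Among all genes tested 11.0% rose and 8.23% fell. The median log2 difference of the 9 genes was 0.45, against 0.00 for all genes tested. This comparison and the one for enhancer loss share the enhancer-null control libraries, so their opposite signs are not independent.

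Cpox changed most with GATA2. It had 24.41, 20.95, 16.93 and 31.71 TPM, all above the enhancer-null control, and rose 2.77-fold (log2 difference 1.47, SE 0.20, adjusted p = 6.03e-05). Urod had 52.62, 49.64, 40.16 and 58.78 TPM, also above every enhancer-null control library, and rose 1.73-fold (adjusted p = 8.65e-04). Alas1 had 138.79, 132.43, 119.01 and 101.43 TPM and rose 1.34-fold (log2 difference 0.42, SE 0.11, adjusted p = 0.0134). Replicate 4 was the lowest GATA2 library for Alas1, while it was the highest for Cpox, Urod, Alad and Slc25a38, and also for Gata2 at 48.20 TPM.

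The other calls were less stable. Alad had 10.94, 15.64, 9.41 and 20.47 TPM, with replicate 3 inside the enhancer-null control range, and rose 1.75-fold (adjusted p = 0.0388). Its call ended when replicate 1, 2 or 3 of the enhancer-null control or replicate 2 or 4 of GATA2 was left out, and with the 8 compared libraries alone (adjusted p = 0.0627), with a log2 difference of 0.49 without GATA2 replicate 4 against 0.81 with all libraries. That call also ended without replicate 4 of all groups (0.0877). Ppox had 14.59 to 21.92 TPM and rose 1.63-fold (adjusted p = 0.0161), a call that ended without enhancer-null control replicate 3 (0.0556) or GATA2 replicate 4 (0.0809). Fech had 10.16 to 12.04 TPM, 1 library of which lay inside the enhancer-null control range, and rose 1.25-fold (adjusted p = 0.0444). The call of Fech ended in 11 of 15 alternatives, among them the omission of any enhancer-null control library or of GATA2 replicate 2 or 4.

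The other 3 genes did not pass the test. Alas2 had 2.17, 2.11, 0.95 and 4.91 TPM, a range around that of the enhancer-null control, with a log2 difference of -0.10 (SE 0.53, adjusted p = 0.933). Uros had 6.61 to 9.06 TPM and a log2 difference of -0.01 (SE 0.11, adjusted p = 0.979). Slc25a38 had 11.44 to 17.23 TPM, with a log2 difference of 0.45 (SE 0.17, adjusted p = 0.0706), and passed with the replicate number as a block (0.43, adjusted p = 0.0134), with limma on log2(TPM + 1) (0.41, adjusted p = 0.0283) or without GATA2 replicate 3 (0.56, adjusted p = 0.0295). Of the erythroid markers 7 rose and 2, Slc4a1 and Trim10, fell, and their summed level was 46.1 to 129 TPM. All 7 eosinophil markers and 8 of 9 of mast cells and basophils rose. Neutrophil markers fell in 6 of 7, monocyte and macrophage markers in 6 of 7 and stem and progenitor markers in 3 of 7, while 1 megakaryocyte marker rose and 1 fell. The part of these shifts was not tested.

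R307W raised 3 genes and lowered 1 against the enhancer-null control. Among all genes tested 10.0% rose and 7.48% fell, and the median log2 difference of the 9 genes was 0.42, against 0.02 for all. Alas1 had 146.61, 152.51, 138.68 and 164.08 TPM, all above the enhancer-null control, and rose 1.61-fold (log2 difference 0.69, SE 0.11, adjusted p = 3.56e-04). Cpox had 16.34, 13.43, 14.38 and 19.93 TPM, again without overlap, and rose 1.80-fold (0.84, SE 0.20, adjusted p = 0.00738). Urod had 48.77, 39.03, 32.80 and 50.27 TPM, with replicate 3 inside the enhancer-null control range, and rose 1.39-fold (0.48, SE 0.15, adjusted p = 0.0297). The Urod call ended when any enhancer-null control library or replicate 1, 2 or 4 of R307W was left out. It also ended without replicate 4 of all groups (adjusted p = 0.0868).

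Alas2 had 0.50, 1.17, 0.73 and 0.69 TPM with R307W, from 22 to 55 expected counts per library, and every library was below the enhancer-null control. It was 3.94-fold lower (log2 difference -1.98, SE 0.60, adjusted p = 0.0281). The call ended without enhancer-null control replicate 4 (log2 difference -1.43, adjusted p = 0.127) and without R307W replicate 1, 3 or 4 (0.0735, 0.0629 and 0.0982), and with limma on log2(TPM + 1) (0.0662). It also ended without replicate 4 of all groups (log2 difference -1.30, adjusted p = 0.109). The remaining genes had ranges of 9.11 to 15.40 TPM for Alad, 6.03 to 7.48 for Uros, 12.95 to 21.38 for Ppox, 9.40 to 10.60 for Fech and 9.24 to 13.49 for Slc25a38, and none of these 5 passed. Ppox was the closest to the threshold (log2 difference 0.53, SE 0.19, adjusted p = 0.0657), and passed without R307W replicate 3 (0.0434), without the filter (0.0489) and with the 8 compared libraries alone (0.0434). Of the erythroid markers 7 rose and 2 fell, with a summed level of 41.8 to 101 TPM. All 7 eosinophil markers rose, as did 6 of 9 of mast cells and basophils. Monocyte and macrophage markers fell in 6 of 7, stem and progenitor markers in 5 of 7, and neutrophil and megakaryocyte markers in 3 of 7 each. The part of these shifts was not tested.

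T354M gave another pattern. It raised Alas1 and lowered Alas2 and Uros against the enhancer-null control, while 9.26% of all genes tested rose and 8.11% fell. The median log2 difference of the 9 genes was -0.10, against 0.02 for all. Alas1 had 234.88, 199.52, 220.19 and 264.25 TPM, above all 16 libraries of the other groups, and was 2.46-fold higher than the enhancer-null control (log2 difference 1.30, SE 0.11, adjusted p = 2.36e-07). This call held in all 15 alternatives. Alas2 had 0.26, 0.69, 0.45 and 0.62 TPM, from 14 to 41 expected counts, below every enhancer-null control library. It was 5.38-fold lower (log2 difference -2.43, SE 0.61, adjusted p = 0.0109), and without enhancer-null control replicate 4 the value was -1.88 with adjusted p = 0.0562.

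Uros had 6.52, 7.12, 5.69 and 4.84 TPM with T354M, a range that overlapped the enhancer-null control in TPM but not in CPM. It was 1.30-fold lower (log2 difference -0.37, SE 0.11, adjusted p = 0.0236), and the call ended when replicate 1, 3 or 4 of the enhancer-null control or replicate 1 or 4 of T354M was left out, with adjusted p from 0.0516 to 0.0701. It also ended without the filter (0.096), with limma on log2(TPM + 1) (0.334) and without replicate 4 of all groups (0.0877). Cpox had 7.66, 8.22, 9.85 and 7.98 TPM, spanning the enhancer-null control range, with a log2 difference of -0.08 (SE 0.20, adjusted p = 0.838). Alad had 5.91 to 7.37 TPM, Urod 28.17 to 40.28, Ppox 11.77 to 16.45, Fech 8.17 to 10.13 and Slc25a38 7.57 to 8.83, and none of these passed. Without Alas1, the other 8 genes summed to 85.7 ± 6.30 TPM with T354M, 116 ± 18.1 with R307W and 142 ± 26.4 with GATA2 (SD, n = 4). Erythroid markers rose in 1 of 11, Gata1, and fell in 8, with a summed level of 10.3 to 19.6 TPM. All 7 eosinophil markers and 6 of 9 of mast cells and basophils rose. Monocyte and macrophage markers fell in 5 of 7 and megakaryocyte markers in 3 of 7, while stem and progenitor markers fell in 4 and rose in 1 of 7, and 1 neutrophil marker of 7 rose. The part of these shifts was not tested.

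The vectors were also compared directly. T354M differed from GATA2 in 8 of the 9 genes: Alas1 was higher and Alas2, Alad, Uros, Urod, Cpox, Fech and Slc25a38 were lower. Among all genes tested 3.86% were higher and 6.14% lower. Over the 9 genes the median log2 difference was -0.67, against 0.02 for all. Alas1 was 1.84-fold higher (log2 difference 0.88, SE 0.11, adjusted p = 5.15e-05). Cpox was 2.92-fold lower (-1.55, SE 0.20, adjusted p = 5.96e-05), Alad 2.24-fold (adjusted p = 0.00699), Slc25a38 1.71-fold (adjusted p = 0.00536) and Urod 1.59-fold (adjusted p = 0.00464). Each of these 5 calls held in all 15 alternatives.

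The other 3 calls of this comparison were less stable. Alas2 was 5.01-fold lower with T354M than with GATA2 (log2 difference -2.33, SE 0.61, adjusted p = 0.0185), but without GATA2 replicate 4 the value was -1.43 with adjusted p = 0.159, and the call also ended without T354M replicate 1 (0.0645) or 3 (0.0533) and with the 8 libraries alone (0.0635). Fech was 1.34-fold lower (adjusted p = 0.0159), a call that ended without GATA2 replicate 4 (0.0879) or T354M replicate 1 (0.0535) and with limma (0.0803). Uros was 1.29-fold lower (adjusted p = 0.0354), and its call ended when any T354M library or GATA2 replicate 1, 2 or 4 was left out, without the filter (0.133), with the 8 libraries alone (0.068) and with limma (0.3). All 3 calls also ended without replicate 4 of all groups, with adjusted p = 0.0781 for Alas2, 0.153 for Fech and 0.256 for Uros. Ppox had a log2 difference of -0.49 (SE 0.19, adjusted p = 0.129), and passed with the replicate number as a block (adjusted p = 0.0333) and without GATA2 replicate 3 (0.0423) or T354M replicate 4 (0.0483). The erythroid markers were lower with T354M in 9 of 11, and the neutrophil markers higher in 5 of 7.

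R307W and GATA2 differed in 0 of the 9 genes with edgeR, and likewise with the DESeq2 Wald test and with limma on log2(TPM + 1). At adjusted p under 0.05, 0.587% of all genes tested were higher and 1.14% lower with R307W. In edgeR 4 of the 9 had an unadjusted p under 0.05, a threshold at which the share of all genes was not computed. The median log2 difference of the 9 genes was -0.28, against 0.01 for all genes. Cpox had a log2 difference of -0.62 (SE 0.20, adjusted p = 0.16), and Alas2 of -1.88 (SE 0.60, adjusted p = 0.16). Alas2 passed with the replicate number as a block (-1.70, adjusted p = 0.0497), without the filter on low counts (0.0329), and, together with Cpox, without GATA2 replicate 3 (0.0386 for Alas2 and 0.0387 for Cpox). Alas1 was at 0.27 (SE 0.11, adjusted p = 0.425).

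T354M against R307W gave 1 higher gene, Alas1, and 1 lower gene, Cpox, where 1.19% of all genes tested were higher and 2.30% lower. For the 9 genes the median was -0.35 on the log2 scale, against 0.01 for all. Alas1 was 1.53-fold higher (log2 difference 0.61, SE 0.11, adjusted p = 0.00353), and passed in all alternatives but the fit of the 8 libraries alone (adjusted p = 0.065). Cpox was 1.90-fold lower (-0.92, SE 0.20, adjusted p = 0.0111), with adjusted p = 0.0598 without R307W replicate 4. With the replicate number as a block 4 genes passed, adding Alad (-0.74, adjusted p = 0.0356) and Slc25a38 (-0.49, adjusted p = 0.0221). Both had TPM in every T354M library below every R307W library. Erythroid markers were lower with T354M in 8 of 11.

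**Figure D3:**
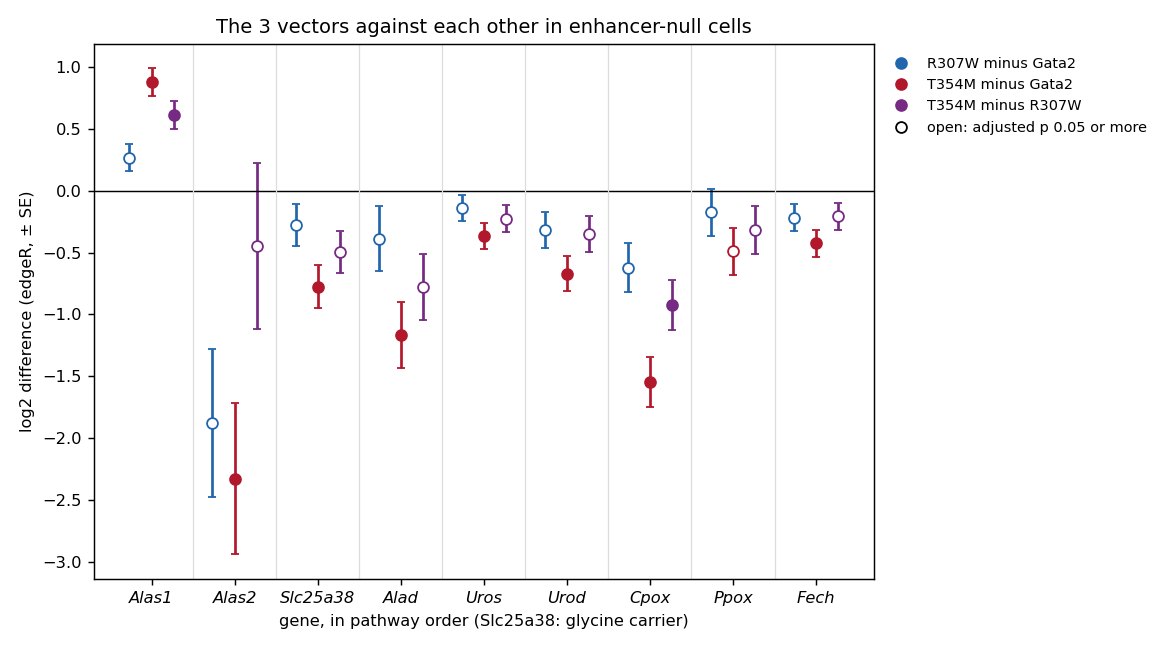
Log2 difference of each gene (y axis, with its SE from edgeR) between the 3 vectors in enhancer-null cells, R307W minus GATA2 (blue), T354M minus GATA2 (red) and T354M minus R307W (purple), filled where the adjusted p is under 0.05. Alas1 lies above 0 in each comparison and the other 8 genes lie below it, with the red point of Cpox at -1.55.

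With none of the vectors did the pathway apart from Alas1 reach the level of the wild-type control. With GATA2, 8 genes were below the wild-type control, while 16.0% of all genes tested were lower and 14.7% higher. The folds lay between 2.85-fold for Urod and 17.5-fold for Alas2, and Alas1 had a log2 difference of 0.09 (SE 0.11, adjusted p = 0.585). With R307W, the same 8 genes were lower, from 3.48-fold for Slc25a38 to 64.3-fold for Alas2, where 17.0% of all genes were lower and 16.5% higher. Alas1 was 1.28-fold higher (adjusted p = 0.0186), a call that ended without R307W replicate 4 (0.0628) and without replicate 4 of all groups (0.0519). With T354M, the 8 genes were 4.41-fold (Ppox) to 87.7-fold (Alas2) lower, where 18.4% of all genes were lower and 18.6% higher. Alas1 was 1.95-fold higher than the wild-type control (log2 difference 0.97, SE 0.11, adjusted p = 1.71e-06), with no overlap of libraries. The median log2 difference of the 9 genes was -2.17 with GATA2, -2.56 with R307W and -2.85 with T354M. These comparisons share the wild-type control libraries. All 11 erythroid markers were lower than in the wild-type control with each vector. Hepatocyte markers were lower in 6 of 12 with R307W, where their summed level was 93.4 to 791 TPM, and in 1 of 12 with GATA2 and 1 with T354M. Their sums overlapped the 454 to 1748 TPM of the wild-type control in each case, and the part of these markers was not tested.

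The share of Alas2 in the pair of ALA synthase genes was lower in every enhancer-null library than in every wild-type one. In the wild-type control Alas2 made up 14.9 to 34.6% of the summed TPM of Alas1 and Alas2. In the enhancer-null control its share was 1.68 to 4.27%, with GATA2 0.792 to 4.62%, with R307W 0.340 to 0.761% and with T354M 0.111 to 0.345%. The range with GATA2 held that of the enhancer-null control, and the ranges of the variants overlapped at their ends. The share was lower in every library of both variants than in every library of the GATA2 group. Alas1 alone made up 16.3 ± 2.02% of the summed TPM of the 9 genes in the wild-type control and 50.9 ± 1.42% in the enhancer-null control. It made up 46.7 ± 6.70% with GATA2, 56.6 ± 2.67% with R307W and 72.7 ± 2.32% with T354M (SD, n = 4).

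**Figure D4:**
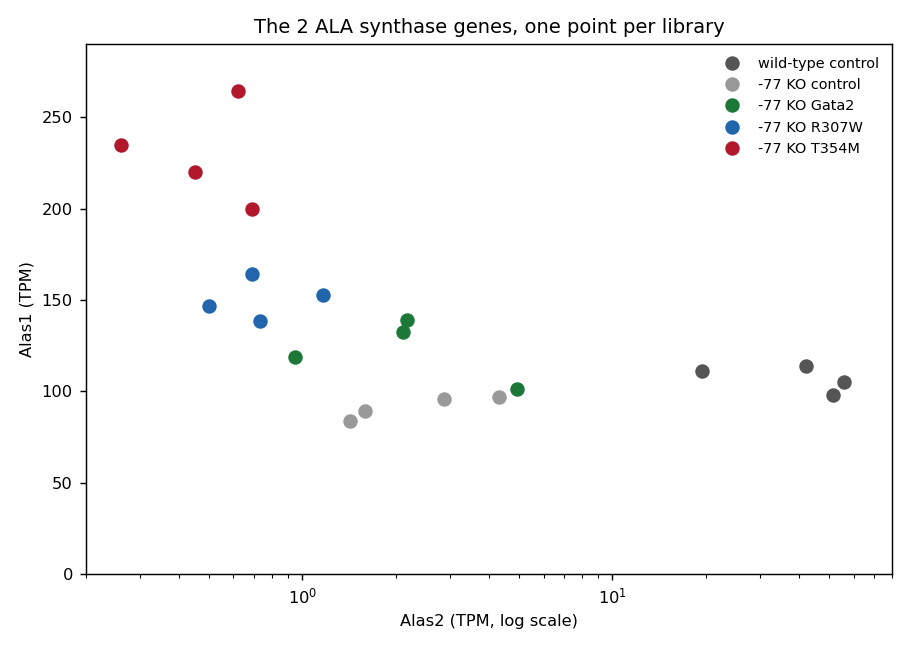
Alas1 (y axis, TPM, from 0) against Alas2 (x axis, TPM, log scale), 1 point per library, coloured by group. Wild-type control libraries lie at the right, from 19.45 TPM of Alas2, and T354M libraries at the upper left, with Alas1 from 199.52 TPM and Alas2 at most 0.69 TPM.

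Some of the genes share exon bases with a gene on the opposite strand, and the sources used here do not say whether counting used strand. For Alas2, 311 of its 2403 exon bases lie in exons of Apex2, a DNA repair enzyme gene. Apex2 had 3.57 to 6.18 TPM over all libraries and so exceeded Alas2 in both variant groups. In the enhancer-null control and GATA2 groups the median of Apex2 was 4.69 and 4.52 TPM, against 2.225 and 2.14 for Alas2, with overlapping ranges. Ppox shares 791 of 4515 exon bases with B4galt3, at 9.42 to 15.34 TPM. Alas1 shares 465 of 6174 exon bases with the antisense gene 4930500F10Rik, at 0.08 to 0.64 TPM, and Cpox 204 of 6661 with Gpr15, at 0.19 to 1.54 TPM. How reads of these shared bases were assigned was not tested.

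Across the 20 libraries the 8 genes other than Alas1 had Pearson r of 0.85 to 0.99 with each other on log2 CPM, and Alas1 had r of -0.49 to -0.14 with them. The points share library and group, so these values describe the pattern and carry no p-value. Of 9918 genes ranked, those most like Alas1 over the 20 libraries were Prss57 (r = 0.97), Sun2 (0.97), Chdh (0.95), Dio2 (0.95) and Trim45 (0.95). Prss57, a serine protease of granulocyte precursors, had 18.5 ± 1.22 TPM in the wild-type control, 9.98 ± 2.61 in the enhancer-null control and 50.7 ± 10.8 with T354M. Among the 5 most like Alas2 were Aldh1a1, Slc6a20a, Epb42 and Tmcc2, each with r of 0.96. Epb42, a protein of the red cell membrane skeleton, had 36.7 ± 9.44 TPM in the wild-type control and 1.06 ± 0.398 in the enhancer-null control. Among the 5 most like Fech were Fam210b, Ubac1, Sox6 and Tapt1, each with r of 0.99.

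Among 18 other genes of haem synthesis and its mitochondrial transport, 9 were lower and 2 higher with enhancer loss. The median log2 difference was -0.21, smaller in size than the -2.73 of the 9 genes. Abcb10, a mitochondrial transporter of red cell precursors, was 7.26-fold lower (edgeR, adjusted p = 9.52e-10), at 38.7 ± 6.15 TPM in the wild-type control and 5.68 ± 0.615 in the enhancer-null control. Tspo, an outer membrane protein, and Iscu, the scaffold of iron-sulphur clusters, were the pair that rose. With GATA2 3 rose and 1, Iscu, fell. Abcb10 was 2.11-fold higher (adjusted p = 2.15e-04) and Abcb6, a porphyrin transporter, 1.85-fold (adjusted p = 0.00171), and Tspo2 also rose. With R307W 3 rose and 1 fell, and with T354M 2 rose and 1 fell. T354M against GATA2 gave 1 higher gene, Slc25a37, an iron importer of mitochondria, and 2 lower genes, Abcb6 and Tspo2. Of all genes tested, 23.2% were lower and 20.1% higher with enhancer loss, and 11.0% rose and 8.23% fell with GATA2. The shares were 10.0% up and 7.48% down with R307W, and 9.26% up and 8.11% down with T354M. For T354M against GATA2 they were 3.86% higher and 6.14% lower.

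Among 10 tested genes for haem export, uptake and breakdown, 4 were lower and 2 higher with enhancer loss. Hebp1, a haem-binding protein, was 9.65-fold lower (adjusted p = 5.62e-09) and Blvrb, a biliverdin reductase, 8.90-fold lower (adjusted p = 1.3e-06). With GATA2 3 rose and 2 fell. Blvrb rose 2.36-fold (adjusted p = 0.0167), and Slc48a1, a haem transporter, 1.27-fold (adjusted p = 0.0208). The pair that fell was Hmox1 and Hmox2, the haem oxygenases. With R307W 3 fell, and with T354M 1 rose and 3 fell. Hmox1 fell with each of the 3 vectors. Of all genes tested, 23.2% were lower and 20.1% higher with enhancer loss, and 11.0% rose and 8.23% fell with GATA2. The shares were 10.0% up and 7.48% down with R307W, and 9.26% up and 8.11% down with T354M.

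Of 14 tested regulators, 7 were lower and 1, the haem-binding repressor Bach1, was higher with enhancer loss. Tal1, an erythroid transcription factor, was 4.67-fold lower (adjusted p = 1.15e-08) and Eif2ak1, the kinase that senses haem shortage, 1.95-fold lower (adjusted p = 5.03e-08). With GATA2 4 rose and Bach1 fell. Gata1 was 8.77-fold higher (adjusted p = 1.49e-05), at 3.08 ± 0.637 TPM in the enhancer-null control and 26.4 ± 7.90 with GATA2, and Klf1, an erythroid zinc finger factor, 8.09-fold higher (adjusted p = 6.35e-05). With R307W the count was also 4 rising, namely Gata1, Klf1, Nfe2 and Tal1, and 1 falling. With T354M 2 rose, Gata1 and Nfe2, and 1, Aco1, fell. Gata1, Klf1 and Tal1 were lower with T354M than with GATA2. Of all genes tested, 23.2% were lower and 20.1% higher with enhancer loss, and 11.0% rose and 8.23% fell with GATA2. The shares were 10.0% up and 7.48% down with R307W, and 9.26% up and 8.11% down with T354M.

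Of 15 tested genes for proteins that carry haem outside the globins, 2 rose and 2 fell with enhancer loss, 3 rose and 3 fell with GATA2, 3 rose and 2 fell with R307W, and 3 rose and 1 fell with T354M. Of all genes tested, 20.1% rose and 23.2% fell with enhancer loss, and 11.0% rose and 8.23% fell with GATA2. The shares were 10.0% up and 7.48% down with R307W, and 9.26% up and 8.11% down with T354M. The summed level of the haem protein genes was 1076 to 1261 TPM in the wild-type control and 1331 to 1504 in the enhancer-null control. It was 1255 to 1630 TPM with GATA2, 1962 to 2254 with R307W and 2486 to 3310 with T354M. Mpo, the myeloperoxidase of neutrophil granules, held most of that sum in the group means of the enhancer-null control and of each vector. It had 557 ± 74.6 TPM in the wild-type control and 728 ± 63.8 in the enhancer-null control (SD, n = 4). With GATA2 it had 798 ± 134 TPM, with R307W 1484 ± 155 and with T354M 2016 ± 255. Mpo was 2.05-fold higher with R307W (adjusted p = 2.42e-04) and 2.72-fold higher with T354M (adjusted p = 5.93e-06) than in the enhancer-null control. Epx, the eosinophil peroxidase, had 23.8 ± 2.46 TPM in the wild-type control, 0.0675 ± 0.102 in the enhancer-null control and 102 ± 21.1 with GATA2. Cyb5a, a cytochrome b5, was 1.73-fold lower with enhancer loss (adjusted p = 3.79e-07), and Cyp51, a cytochrome of sterol synthesis, 1.99-fold higher with GATA2 (adjusted p = 1.37e-04). Of 6 tested globin genes 4 fell with enhancer loss, among them Hbb-bt, 10.1-fold (adjusted p = 3.33e-05), and Hba-a2, 11.3-fold (adjusted p = 7.95e-05). With GATA2 1 globin gene, Hba-a2, fell 3.29-fold (adjusted p = 0.0375), and Hbb-bs had a log2 difference of -1.57 (adjusted p = 0.0552). The adult globin genes have near-identical copies whose reads can be exchanged. With R307W Hba-a2 had the lowest adjusted p of the 6, 0.0688, with a log2 difference of -1.49. With T354M 3 fell, Hba-a2, Hbb-bs and Hbb-bt. The globins' summed level was 3914 to 7831 TPM in the wild-type control and 220 to 1204 in the enhancer-null control. It was 105 to 315 TPM with GATA2, 209 to 605 with R307W and 72.3 to 234 with T354M, ranges that overlapped the enhancer-null control.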

How the data were processed

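Per the labels, total RNA was prepared by the NuGEN Ovation protocol. The submitters' processing notes name STAR 2.5.2b, RSEM 1.3.0 and build mm10. The deposited tables give, per gene, the expected count that RSEM assigns and the authors' TPM, which RSEM scales to gene length and library total. The members and lists were chosen with earlier results of these data known. Expected counts were rounded, filtered with filterByExpr (15835 genes), normalised by TMM and compared by the quasi-likelihood test of edgeR 4.0.16 (R 4.3.3), with 20 libraries in 1 fit of 5 group means and 15 residual degrees of freedom. Benjamini-Hochberg adjustment ran over every gene tested in a comparison, with calls at adjusted p under 0.05. The SE is the log2 difference divided by the square root of F. Groups came from the sample labels, and gene names from GENCODE M21. Beside the 9 members and Gata2, 2 genes per list with the lowest adjusted p were named for enhancer loss and for GATA2, and the 5 genes most like Alas1, Alas2 and Fech among those with at least 5 CPM in 1 group. A gene named outside this rule was chosen after its values were seen.

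Alternatives were DESeq2 size factors, no filter, a replicate block, a fit of the 8 compared libraries alone, the Wald test of DESeq2 1.42.0, limma 3.58.1 on log2(TPM + 1), each library left out in turn, and replicate 4 of all groups left out. Replicate numbers counted as pairing 2 groups where each same-numbered pair deviated together from its group means with a correlation over 0.1. This held for GATA2 against the enhancer-null control (0.12 to 0.30) and between the 3 vectors (0.16 to 0.67). Pairs with different numbers reached at most 0.06 for GATA2 against the enhancer-null control. Between the vectors their highest values were 0.22 to 0.34, above the lowest same-numbered value of each comparison, so the pairing is less clear there. No replicates were duplicates, since the chi-square between them, divided by its degrees of freedom, was 18.1 to 115. The fit was tested on simulated data with known changes. FPKM was not analysed here, and some genes named by the rule or held in the lists are not reported here.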

Additional observations from a re-analysis of the deposited data

Results flagged for a closer look

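Cpox in replicate 3 of the wild-type control stood apart from the other libraries of its group, at 142.02 TPM against 89.28 to 93.29 TPM in the others. The gap to the nearest library was 0.924 of the group's whole range, above Dixon's critical value for 4 libraries. It was 1 of 45 sets of a gene and a group examined, fewer than the about 1 in 20 that chance gives.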

How the results depend on the processing

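A total of 58 calls of the 9 genes were made in the 10 comparisons, and none changed direction in any alternative. Of these, 44 passed in every alternative run and 14 did not in at least 1; the cause was not tested. The number of genes called moved by over 1.5 times in these cases. With the replicate number as a block it was 1 for R307W against GATA2 (0 without the block) and 4 for T354M against R307W (2 without it). In the comparisons where the numbers do not pair the samples, the block added Ppox with R307W against the enhancer-null control (0.51, adjusted p = 0.0161). No other call changed with the block beyond those given above. Without the filter on low counts 1 gene was called for R307W against GATA2. With only the 8 libraries of the comparison 1 was called for T354M against R307W. With replicate 4 of all groups left out, 2 were called for R307W against the enhancer-null control and 5 for T354M against GATA2. Leaving out 1 library at a time gave 3 to 7 genes for GATA2, 2 to 4 for R307W and 1 to 3 for T354M against the enhancer-null control. It gave 0 to 2 for R307W against GATA2, 5 to 9 for T354M against GATA2 and 1 to 2 for T354M against R307W. Against the wild-type control the counts were 8 to 9 for the enhancer-null control, 8 for GATA2, 8 to 9 for R307W and 9 for T354M. The depth limits Alas2 most, with 14 to 55 expected counts per library in the variant groups. Over all genes tested, the calls also moved by over 1.5 times. R307W against GATA2 had 274 calls, 441 with the block, 430 with the DESeq2 Wald test and 117 with the 8 compared libraries alone, and T354M against R307W had 553, 888 with the block, 250 with the 8 libraries and 360 with limma. T354M against the enhancer-null control had 2751, and 1831 with limma. Without replicate 4 of all groups the counts were 1996 for GATA2 (3042 with all libraries), 1509 for R307W (2773) and 1681 for T354M against the enhancer-null control, and 162, 1013 (1583 with all libraries) and 316 for R307W against GATA2, T354M against GATA2 and T354M against R307W. With 1 library out, the lowest were 1574 for GATA2, 1276 for R307W and 1401 for T354M against the enhancer-null control, each without replicate 4 of its vector group. Between the vectors they were 126 for R307W against GATA2 and 979 for T354M against GATA2, both without GATA2 replicate 4, and 282 for T354M against R307W without R307W replicate 4.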

Other observations

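Other blood lineages moved in the same libraries. All 7 eosinophil markers fell with enhancer loss and rose with each vector. Of all genes tested, 23.2% fell and 20.1% rose with enhancer loss, and 11.0% rose and 8.23% fell with GATA2. With R307W 10.0% rose, and with T354M 9.26%. For all 7 markers the libraries did not overlap on the CPM scale with enhancer loss, which held for 38.8% of all genes tested. That share was not computed for the vectors, and with T354M the libraries of 1 of the 7 markers overlapped. Prg2, the eosinophil major basic protein, had 609 ± 170 TPM in the wild-type control, 4.01 ± 2.26 in the enhancer-null control and 2574 ± 596 with GATA2, and Prg3, its homologue, had 43.7 ± 11.6, 0.265 ± 0.186 and 200 ± 38.3. Il5ra, the interleukin 5 receptor, had 2.08 ± 0.418, 0.0650 ± 0.0342 and 8.86 ± 1.67 TPM. All 9 mast cell and basophil markers fell with enhancer loss and 8 rose with GATA2, 6 with R307W and 6 with T354M. Hdc, which makes histamine, was 16.8-fold lower with enhancer loss and 40.0-fold higher with GATA2, Cpa3, a mast cell protease, 23.1-fold lower with enhancer loss, and Mcpt8, a basophil protease, 58.8-fold higher with GATA2 (edgeR, adjusted p of 2.12e-07 or less). Both variants were lower than GATA2 in 6 of these 9, where 1.14% of all genes tested were lower with R307W and 6.14% with T354M.

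All 7 monocyte and macrophage markers rose with enhancer loss, among them Cx3cr1 (7.78-fold) and Itgax (9.09-fold), and with GATA2 6 fell, among them Itgax (2.57-fold) and Cd68 (2.22-fold). Of the stem and progenitor markers, Cd34 rose 6.60-fold and Ly6a 18.7-fold with enhancer loss, and with GATA2 Cd34 fell 2.10-fold and Flt3 2.85-fold. Of the neutrophil granule genes, Camp fell 7.74-fold and Ngp 9.02-fold with enhancer loss, and Elane 1.83-fold and Camp 2.76-fold with GATA2. All 7 megakaryocyte markers fell with enhancer loss, Clec1b by 3.98-fold and Gp1bb by 3.31-fold, and with GATA2 Clec1b fell 2.15-fold and Itga2b rose 2.06-fold. Of the erythroid markers, Rhag fell 35.3-fold and Trim10 24.6-fold with enhancer loss, and Ermap rose 5.96-fold with GATA2. Of the hepatocyte markers with the lowest adjusted p, Hnf4a had 0.128 and Apoa2 0.151 with enhancer loss, and Trf 0.357 and Afp 0.479 with GATA2.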
